A study of Mus musculus with 2 samples.

Results

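The 4 inhibitor of differentiation genes Id1, Id2, Id3 and Id4, the inhibitory Smads Smad6 and Smad7, Bambi and Atoh8 were followed across the cells of the mouse utricle. These 8 genes were chosen by name as targets of bone morphogenetic protein (BMP) signalling, 8 of the 31053 genes in the count matrices, and each matched 1 row at both ages. The utricle is a balance organ of the inner ear, and its sensory epithelium holds hair cells, which turn head movement into nerve signals, and supporting cells. Single-cell RNA-seq was made from wild-type (WT) utricular sensory epithelium at postnatal day 2 (P2) and embryonic day 14 (E14), 1 library per age, after enzymatic detachment of the epithelium. Inner ears were taken from several embryos or postnatal animals of either sex at a time, and how many went into each library was not given in the sources used here. With 1 library per age there was no replicate error and no test could be made. Age and library cannot be told apart, and all intervals below are 95% intervals that cover counting error only.

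BMP ligands bind paired receptors on the cell surface, which phosphorylate the receptor Smads, and these move to the nucleus with Smad4 and switch on target genes. Id proteins are among the best known of these targets. They carry the helix-loop-helix dimerization surface but no DNA-binding region, so that they tie up the E proteins which basic helix-loop-helix (bHLH) activators such as Atoh1, the factor required for hair cell formation, need as partners. Smad6 and Smad7 act back on the receptors and their Smads, Bambi is a receptor-like protein without a kinase, and Atoh8 is itself a bHLH factor related to Atoh1.

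All 8 genes are protein coding in GENCODE M21 on GRCm38. Id1 is at chr2:152736251-152737410 on the plus strand, Id2 at chr12:25093799-25097140 on the minus strand, Id3 at chr4:136143497-136145755 on the plus strand and Id4 at chr13:48261228-48266026 on the plus strand. Smad6 is at chr9:63953076-64022059 and Atoh8 at chr6:72206177-72235577, both on the minus strand. RefSeq promoters on GRCm38.p6 were matched for 5 of the 8 genes. Those of Id2 (chr12:25096093-25096342, minus strand), Id3 (chr4:136143572-136143821, plus strand) and Id4 (chr13:48260866-48261115, plus strand) are shown because the values below of Id4 ran apart from those of Id2 and Id3 over the P2 clusters. Each run holds the 250 bases before the RefSeq start site, 5′ to 3′ on the strand of the gene. The 2 annotations differ in their starts. By the GENCODE positions above, the windows of Id2 and Id3 lie inside the gene, and that of Id4 lies before it. Capitals mark the motifs GGCGCC and CAGAC, letters known from Smad-binding sites, searched on both strands.
Id2: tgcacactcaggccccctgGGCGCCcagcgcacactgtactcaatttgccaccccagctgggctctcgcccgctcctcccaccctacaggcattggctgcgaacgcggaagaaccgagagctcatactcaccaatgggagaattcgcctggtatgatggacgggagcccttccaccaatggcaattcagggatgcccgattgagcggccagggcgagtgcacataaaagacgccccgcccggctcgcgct
Id3: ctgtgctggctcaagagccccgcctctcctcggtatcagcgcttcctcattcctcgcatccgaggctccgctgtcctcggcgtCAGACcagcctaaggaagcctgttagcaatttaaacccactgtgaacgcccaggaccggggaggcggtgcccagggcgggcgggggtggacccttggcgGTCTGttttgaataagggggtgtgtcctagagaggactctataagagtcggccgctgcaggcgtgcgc
Id4: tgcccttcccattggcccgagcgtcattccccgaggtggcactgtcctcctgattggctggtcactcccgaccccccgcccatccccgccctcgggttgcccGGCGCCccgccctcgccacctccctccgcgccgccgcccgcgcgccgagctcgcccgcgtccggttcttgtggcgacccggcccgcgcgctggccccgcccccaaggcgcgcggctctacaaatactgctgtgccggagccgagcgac
GGCGCC was found 1 time before Id2, 231 to 226 bases before the start, and 1 time before Id4, 148 to 143 bases before it. CAGAC was found 2 times before Id3, 1 of them as its reverse complement GTCTG. Among 32851 promoter windows of this length, 9.59% held GGCGCC and 42.2% held CAGAC, so these matches are a description of the letters and no sign of binding. Neither motif was found in the windows of Smad6 and Atoh8.

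The deposited matrices held 6251 barcodes with 57003553 unique molecular identifiers (UMIs, counted molecules) at P2 and 15636 barcodes with 122892080 UMIs at E14. After filtering and doublet removal, 3877 cells with a median of 9811 UMIs were kept at P2 and 10138 cells with a median of 6742.5 UMIs at E14. Clusters named by marker genes gave 925 hair cell-like (HC-like) cells at P2 and 268 at E14, 785 and 1334 supporting cell-like (SC-like) cells, and 350 and 697 nonsensory epithelial-like cells. Clusters that stayed unnamed held 44.8% of the P2 cells and 28.0% of the E14 cells, and 5 of these 9 clusters of P2 and 2 of the 8 of E14 had under 50% of the median UMI count of their library. Beside the labelled sensory epithelium, 34 P2 cells and 4064 E14 cells were mesenchymal cell-like. The summed level of 14 hair cell markers was 12229 and 12623 CPM (UMIs per 1000000 UMIs) in the HC-like cells of P2 and E14, and 779 and 496 CPM in SC-like cells. Markers of other cell types differed between the libraries. The 12 mesenchymal markers summed to 16.1 and 17.3 CPM in the HC-like and SC-like cells of P2, with 9 and 12 of them found, and to 764 and 791 CPM in those of E14, where all 12 were found. The 7 red blood cell markers summed to 6.95 and 5.97 CPM in these P2 cells and to 1628 and 5349 CPM in those of E14. The libraries shared 23 barcode sequences. One P2 cluster of 48 cells met the rule for immune cells but was led by cell cycle genes, and it is not used.

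Id1, Id2 and Id3 were lowest of the epithelial classes in HC-like cells at both ages, while Smad6 and Atoh8 were low in all classes. Levels are summed 3′ UMIs per 1000000, so that a transcript counts alike whatever its length. Id1 at P2 was 586 CPM (566 to 607) in nonsensory epithelial-like, 567 CPM (555 to 579) in SC-like and 105 CPM (99.3 to 111) in HC-like cells. Id1 at E14 was highest in SC-like cells with 461 CPM, followed by endothelial-like with 305 CPM and nonsensory epithelial-like cells with 293 CPM. The intervals of these last groups overlapped, and Id1 was lower in pericyte-like (216 CPM), glial-like (187 CPM), mesenchymal cell-like (137 CPM), HC-like (50.6 CPM) and immune-like cells (18.1 CPM). Id2 followed a similar order in the epithelium, with 313, 307 and 41.5 CPM in nonsensory epithelial-like, SC-like and HC-like cells of P2. At E14 Id2 was 254, 288 and 23.1 CPM in these 3 classes. Outside the epithelium Id2 differed from Id1 in the E14 immune-like cells, where it reached 191 CPM. In their deeper cluster of 111 cells, with a median of 11719 UMIs, Id2 was 204 CPM beside 5.99 CPM of Id1 and 27.7 CPM of Id3.

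Id3 is known from vessels and mesenchyme as well as epithelia, and was the most abundant of the 8 genes at E14. By class, Id3 was highest outside the sensory epithelium. Id3 was 2196 CPM in the 55 pericyte-like cells, 1375 CPM in mesenchymal cell-like, 1289 CPM in endothelial-like and 1120 CPM in glial-like cells. Among E14 epithelial classes Id3 was 917 CPM in SC-like, 658 CPM in nonsensory epithelial-like and 88.4 CPM in HC-like cells. Mesenchymal and endothelial levels of Id3 overlapped in their intervals, and the other neighbours in this order did not. All pericyte-like and endothelial-like cells lay in clusters with under 50% of the median UMI count of their library. Single clusters given below broke this order. An SC-like cluster with high Zpld1 passed the mesenchymal, endothelial and glial levels, and an unnamed cluster passed all classes. At P2 Id3 was 383 CPM in nonsensory epithelial-like, 295 CPM in SC-like and 37.4 CPM in HC-like cells. Id4 ran in another order, with its highest class level in HC-like cells at P2. Id4 was 620 CPM (607 to 634) in HC-like cells of P2, 251 CPM in SC-like and 88.9 CPM in nonsensory epithelial-like cells. At E14 Id4 was 358 CPM (336 to 382) in HC-like, 274 CPM in SC-like, 72.1 CPM in nonsensory epithelial-like and 59.3 CPM in glial-like cells. With doublets removed at 0.4% per 1000 barcodes, Id4 at E14 was 251 CPM in HC-like and 284 CPM in SC-like cells, so that their order is not given. In the 4064 mesenchymal cell-like cells of E14, where Id3 was abundant, Id4 was 2.79 CPM (2.23 to 3.45), and in pericyte-like cells no Id4 UMI was found.

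Bambi and Smad7 lie on chr18, at 3507923 to 3516404 and at 75367529 to 75395935, both on the plus strand. Bambi was highest in E14 endothelial-like cells, at 250 CPM (218 to 285), and reached 140 CPM in nonsensory epithelial-like, 72.3 CPM in SC-like and 70.8 CPM in mesenchymal cell-like cells. Bambi at P2 was 45.1 CPM in nonsensory epithelial-like, 24.9 CPM in SC-like and 2.72 CPM in HC-like cells. Smad7 varied less. Smad7 was between 18.8 and 47.6 CPM in the 3 epithelial classes of P2 and between 12.5 and 38.0 CPM in those of E14, with nonsensory epithelial-like cells highest at each age. Smad6 did not pass 7.23 CPM in the P2 classes of at least 50 cells and 15.4 CPM in those of E14. Atoh8 lay between 0.559 and 5.43 CPM in the 3 epithelial classes of P2, and at E14 was 5.71 CPM in mesenchymal cell-like cells with 0 UMIs in HC-like cells.

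**Figure D1:**
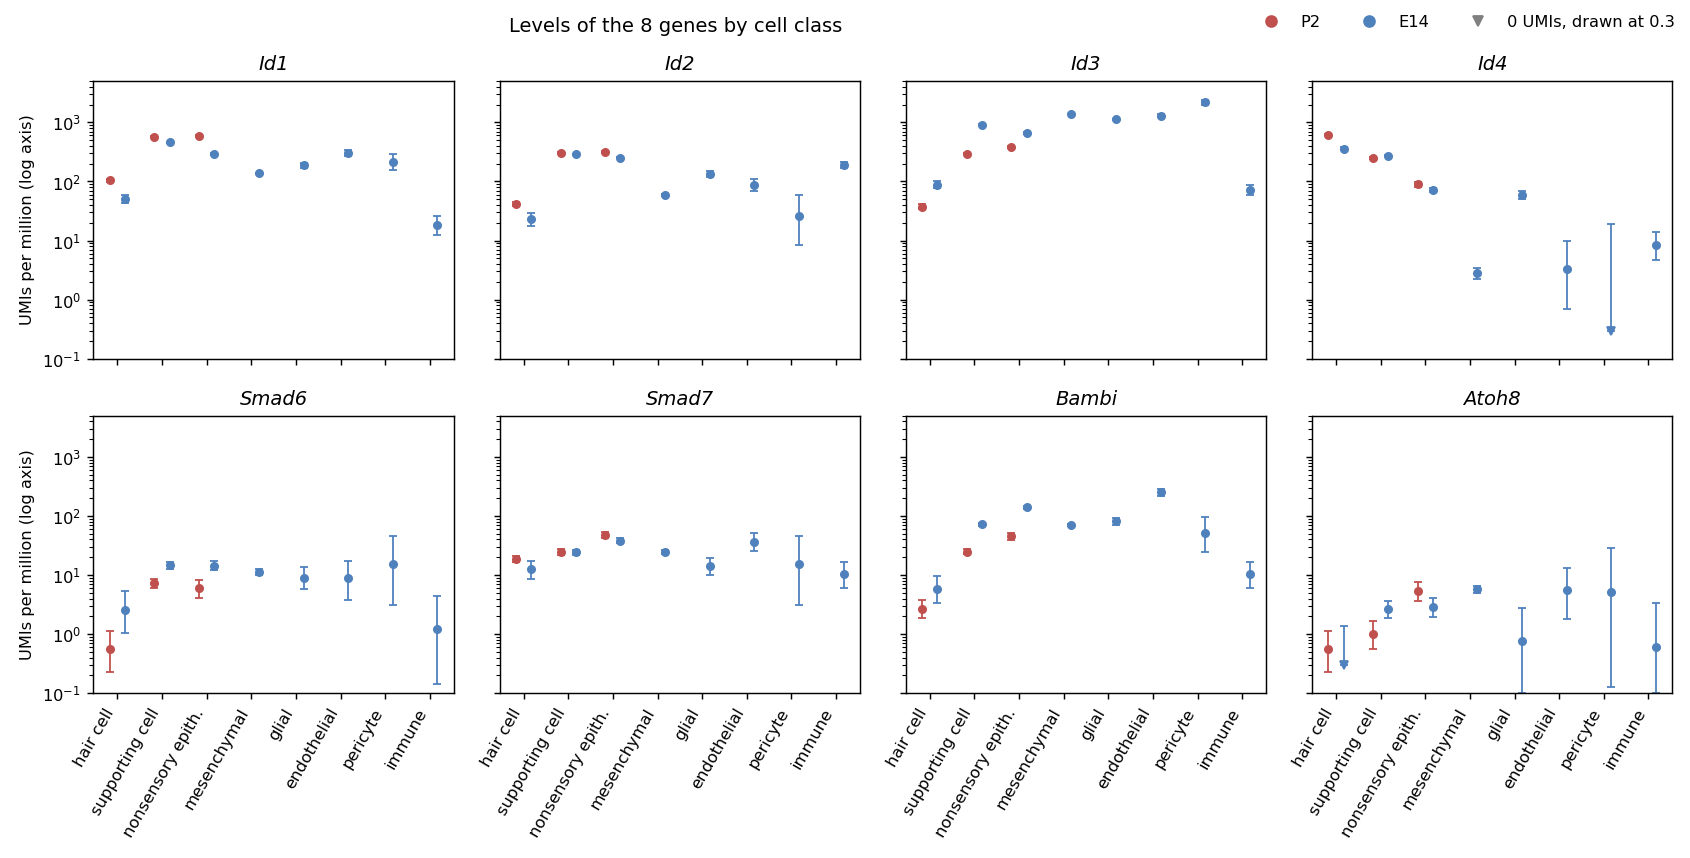
Level of each of the 8 genes in CPM (log axis) by cell class, with P2 left of E14 and bars for 95% counting intervals. Classes of fewer than 50 cells and red blood cell-like cells are not drawn, and triangles at 0.3 mark classes with 0 UMIs. HC-like cells are among the lowest for Id1, Id2 and Id3 and at P2 the highest for Id4, at 620 CPM. At E14 Id4 is drawn at 358 CPM in HC-like and 274 CPM in SC-like cells, an order that turned with fewer doublets removed.

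HC-like cells held less Id1, Id2, Id3, Smad6 and Bambi than SC-like cells of the same library, and at P2 more Id4. This comparison asks how the 8 genes are split between the 2 sensory cell types, and both classes come from the same library. A gene was called here when its levels differed at least 2-fold and it had at least 10 UMIs in either class. At P2, 5 of the 8 genes were called lower in HC-like cells, where 22.5% of all 14368 genes were, and 1 was called higher, where 20.7% of all genes were. In either direction 43.2% of all genes were called. At E14, 6 of the 8 were called lower, where 19.1% of all 13922 genes were, and none higher, where 17.6% were. The median log2 ratio of the members was -2.66 at P2 and -2.85 at E14, and that of all genes tested was 0.02 and 0.04.

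Id1 was 105 CPM in HC-like and 567 CPM in SC-like cells of P2, a ratio of 0.185 (0.174 to 0.196). At E14 Id1 was 50.6 and 461 CPM in these classes, a ratio of 0.110 (0.0921 to 0.130). Id2 had ratios of 0.135 (0.123 to 0.148) at P2 and 0.0803 (0.0616 to 0.103) at E14. All were reductions of more than 5-fold in HC-like cells, and Id3 behaved alike, with ratios of 0.127 (0.115 to 0.139) at P2 and 0.0964 (0.0845 to 0.110) at E14. Bambi had 34 UMIs in HC-like and 375 in SC-like cells of P2, a ratio of 0.109 (0.0745 to 0.155), and 16 and 977 UMIs at E14, a ratio of 0.0811 (0.0462 to 0.132). Smad6 had 7 UMIs in HC-like cells at either age, against 109 in SC-like cells of P2 and 198 in those of E14, ratios of 0.0774 (0.0304 to 0.165) and 0.175 (0.0695 to 0.368). Atoh8 had 7 and 15 UMIs at P2, too few to set the classes apart. At E14 Atoh8 had 0 UMIs in HC-like cells and 36 in SC-like cells, and the limit of 3 counts puts the ratio at no more than 0.413, a call that 12 of 17 alternatives kept.

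Id4 and Smad7 stood outside this pattern. Id4 was 620 CPM in HC-like and 251 CPM in SC-like cells of P2, a ratio of 2.47 (2.38 to 2.57). At E14 Id4 was 358 and 274 CPM, a ratio of 1.31 (1.22 to 1.40). The E14 value rested on 1 SC-like cluster with high Zpld1, a gene known from the cristae, and without that cluster the ratio was 2.70. Over 17 alternatives it lay between 0.884 and 2.70, so that no direction is given for Id4 at E14. Smad7 differed less, with ratios of 0.765 (0.647 to 0.904) at P2 and 0.515 (0.351 to 0.735) at E14, where 8 of 17 alternatives called it lower.

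Lists of related genes were read beside these values. The shares of all genes called were 22.5% lower and 20.7% higher at P2, and 19.1% and 17.6% at E14. Of 14 BMP receptors and Smads, 11 were tested at P2 and 12 at E14, 3 were called lower in HC-like cells at each age and none higher. Bmpr1a, a type I BMP receptor, was 14.9 CPM in HC-like and 58.5 CPM in SC-like cells of P2, a ratio of 0.254 (0.216 to 0.298). Smad4, the shared partner of the receptor Smads, had a ratio of 0.885 (0.807 to 0.970) at P2 and 0.975 (0.818 to 1.16) at E14. Of 10 E proteins and bHLH partners, 2 of 5 tested were lower at P2, the E proteins Tcf4 with a ratio of 0.304 and Tcf12 with 0.463, and Atoh1 and Atoh7 were higher. At E14, 1 of 6 tested was lower, Tcf4 with a ratio of 0.427, and Atoh1, Neurod1 and Atoh7 were higher, while Tcf12 had a ratio of 0.575 (0.458 to 0.714), short of the call. Atoh1 itself was 186 CPM in HC-like and 24.5 CPM in SC-like cells of P2 and 187 and 19.0 CPM at E14. Of the 6 Hes and Hey repressors, which are Notch targets for the most part, 5 were lower at each age and Hes6 was higher. Hes5, among those lower, is one of the supporting cell markers used to name the clusters, so its call followed in part from the naming. Hes1 had ratios of 0.0479 (0.0416 to 0.0549) at P2 and 0.0654 (0.0537 to 0.0790) at E14. Of 10 genes of the S and G2/M phases, 9 were lower and 1 higher in HC-like cells of E14, and 2 of 8 tested were lower and 2 higher at P2. The part of the cell cycle in the difference of the Id genes was not tested. Immediate early and heat shock genes moved with the same split, with 12 of 14 called lower in HC-like cells at P2 and 13 at E14. All 14 of these dissociation stress genes were found in each class, and their summed level was 2318 and 11073 CPM in HC-like and SC-like cells of P2 and 2551 and 9578 CPM at E14. Their part in the difference of the Id genes was not tested.

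**Figure D2:**
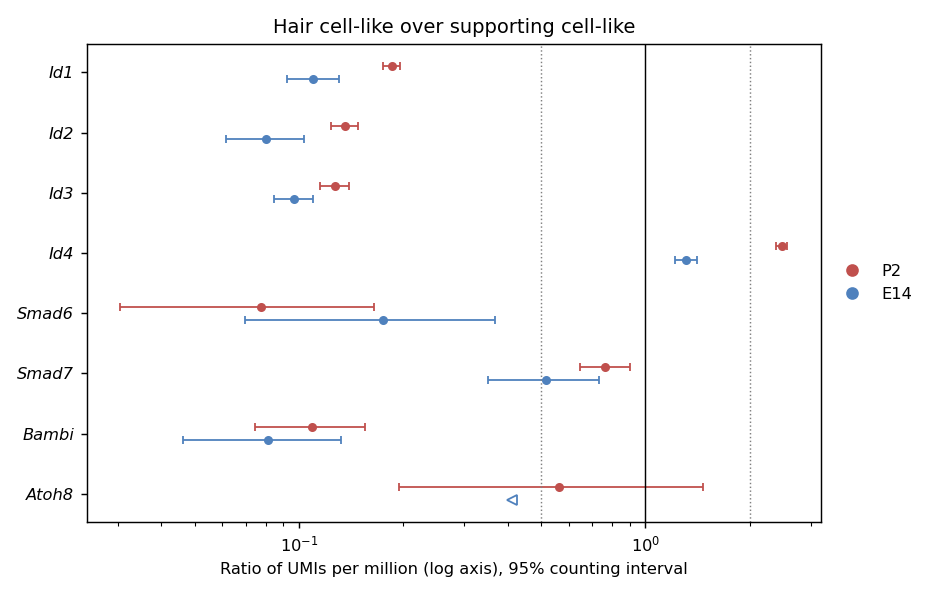
Ratio of levels in HC-like over SC-like cells (log axis) for the 8 genes, with 95% counting intervals, P2 above E14. The solid line marks a ratio of 1, dotted lines mark 2-fold, and an open arrow marks a bound from 0 UMIs. Id1, Id2, Id3, Smad6 and Bambi lie left of 0.5 at both ages, and Id4 is at 2.47 at P2 and at 1.31 at E14, where alternatives ran down to 0.884.

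Between the ages, Id3 and Bambi were lower at P2 in SC-like cells while Id1 and Id2 stayed under 2-fold. In these cells 4 of the 8 genes were called lower at P2, where 11.2% of all 14250 genes were, and none higher, where 13% were. In either direction 24.2% of all genes were called. Id3 was 295 CPM at P2 and 917 CPM at E14, a ratio of 0.322 (0.311 to 0.333). Bambi was 24.9 CPM at P2 and 72.3 CPM at E14, a ratio of 0.344 (0.304 to 0.388). Smad6, with 109 UMIs at P2 and 198 at E14, had a ratio of 0.493 (0.387 to 0.626), and Atoh8, with 15 and 36 UMIs, one of 0.373 (0.190 to 0.699). Id1 had a ratio of 1.23 (1.19 to 1.27), Id2 of 1.07 (1.02 to 1.11), Id4 of 0.917 (0.876 to 0.959) and Smad7 of 1.01 (0.871 to 1.18). Set against the E14 cluster with the highest Tectb alone, a macular marker, an alternative chosen after seeing the data, Id3 had a ratio of 0.627 and lost its call, Id4 of 1.87 in place of 0.917, and Bambi and Smad6 stayed lower at 0.417 and 0.436. In the same alternative Id2 had a ratio of 1.56 in place of 1.07, and Atoh8 of 0.633, which lost its call. Without the E14 cluster with high Zpld1, Id3 had a ratio of 0.513, short of the call, and Id1 one of 1.405. At P2 a cluster of 65 cells with Zpld1 among its leading genes stayed unnamed, so that it is not part of the SC-like class. The mesenchymal markers were higher in E14 SC-like cells, as given above, and their part in the level of Id3 was not tested. For description, Id3 was 24.3 CPM in 1 E14 HC-like cluster and 27.7 CPM in the deeper immune-like cluster of the same library. Id3 was higher in the E14 HC-like class as a whole, as given above, and these values do not measure that part.

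In nonsensory epithelial-like cells 1 of the 8 genes was called higher at P2, where 12.5% of all genes were, and 2 lower, where 11.8% were. Id1 was 586 CPM at P2 and 293 CPM at E14, a ratio of 2.00 (1.90 to 2.10) at the edge of the call. Bambi was 45.1 CPM at P2 and 140 CPM at E14, a ratio of 0.322 (0.280 to 0.369), and Smad6 had a ratio of 0.414 (0.275 to 0.606). Atoh8, with 30 UMIs at each age, was 5.43 CPM at P2 and 2.91 CPM at E14, a ratio of 1.87 (1.09 to 3.21). The class differed in makeup between the ages. At P2, 262 of its 350 cells were 1 cluster with Penk and Slc26a4 among its leading genes. At E14 it held clusters led by Rspo3, Sfrp5 and Pyy, and a cluster of 402 cells led by Slc26a4 stayed unnamed. The P2 cells also held supporting cell markers at 2688 CPM, against 182 CPM at E14. The part of these differences in the ratios was not tested, so the ratios cannot be read as change within 1 cell type.

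In HC-like cells 6 of the 8 genes had enough UMIs to be tested. Of these, 1 was called higher at P2, where 7.6% of all 13316 genes tested were, and 2 lower, where 8.39% were. Id1 was 105 CPM at P2 and 50.6 CPM at E14, a ratio of 2.07 (1.74 to 2.49). Id2 was 41.5 CPM at P2 and 23.1 CPM at E14, a ratio of 1.80 (1.38 to 2.37), and Id4 had a ratio of 1.73 (1.62 to 1.85). Id3 was 37.4 CPM at P2 and 88.4 CPM at E14, a ratio of 0.423 (0.361 to 0.496), and Bambi had 34 UMIs at P2 and 16 at E14, a ratio of 0.463 (0.249 to 0.898). Of the E14 HC-like cells, 1 shallow cluster of 111 cells with a median of 2479 UMIs held 153 of the 241 Id3 UMIs. Without clusters of less than 50% of the median depth of their library, also chosen after seeing the data, the ratio was 3.73 for Id1, 3.78 for Id2, 0.961 for Id3 and 0.665 for Bambi, so that the calls of Id3 and Bambi were lost. With doublets removed at 0.4% per 1000 barcodes, the ratio turned to 0.651 for Id1 and to 0.601 for Id2, and Id2 was at 0.702 with the mean of per-cell CPM. Over all kept cells, whose makeup differed between the libraries, Id4 was 316 CPM at P2 and 78.4 CPM at E14, a ratio of 4.03, and Id3 280 and 1042 CPM, a ratio of 0.268, where 20.2% of all genes were called higher and 17.4% lower. With only 34 P2 cells, the mesenchymal cell-like class had 1 of the 8 genes called higher and 3 lower, where 17.4% and 6.84% of all genes were.

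The lists of related genes were also read between the ages in SC-like cells, where 11.2% of all genes were called lower at P2 and 13% higher. Of 12 BMP receptors and Smads tested, Eng and Smad5 were called lower at P2 and none higher, Bmpr1a had a ratio of 1.47 (1.32 to 1.64) and Smad1 of 1.56 (1.35 to 1.82). Tcf4, an E protein, was 783 CPM at P2 and 306 CPM at E14, a ratio of 2.56 (2.47 to 2.65), and Hes5, a Notch target, was 99.2 CPM at P2 and 589 CPM at E14, a ratio of 0.168 (0.159 to 0.178). Hes5 was among the leading genes of the E14 SC-like clusters of 269 and 48 cells that also had Zpld1, and of the P2 cluster led by Gjb6. Ratios of Tcf4 and Hes5 without those E14 clusters were not tested, and the P2 cluster with Zpld1 lay outside the class. All 10 genes of the S and G2/M phases were lower at P2. The E14 SC-like class held a cluster of 181 cells led by cell cycle genes such as Cenpf and Ube2c. At P2 the cluster of 48 cells led by cell cycle genes lay outside the class. The part of this makeup in the ratios was not tested.

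**Figure D3:**
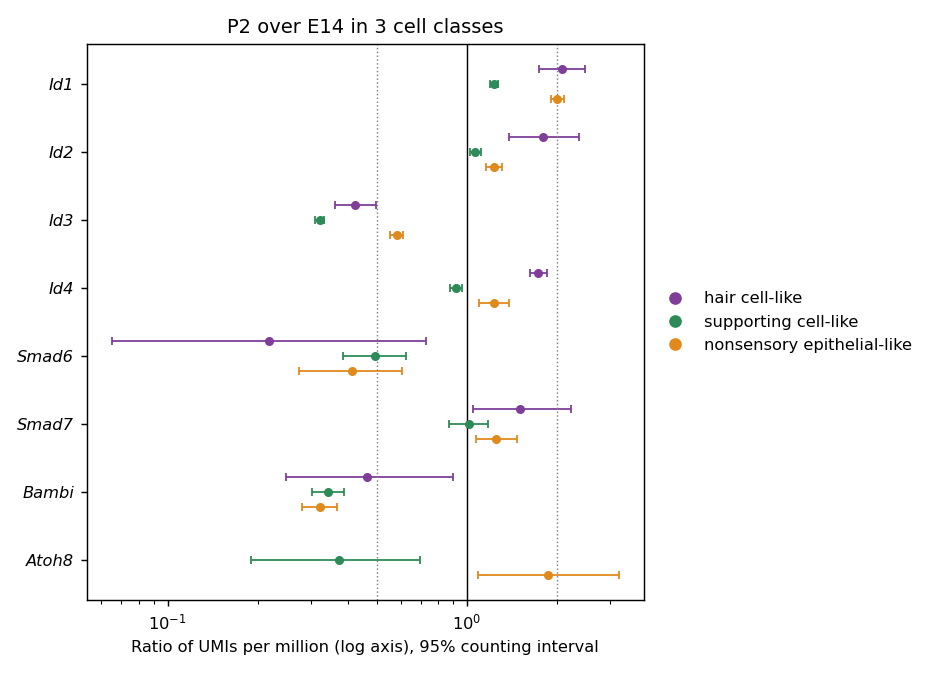
Ratio of levels at P2 over E14 (log axis) in 3 cell classes for the 8 genes, with 95% counting intervals. The solid line marks a ratio of 1 and dotted lines 2-fold. Bambi and Smad6 lie left of 1 in all 3 classes, Smad6 in HC-like cells on 7 UMIs at each age, Id3 does so with ratios between 0.322 and 0.582, and Atoh8 in HC-like cells is left out because of its 7 and 0 UMIs.

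Within a class the clusters differed, and at P2 Id1, Id2 and Id3 varied together. Among P2 SC-like clusters, Id1 was 1076 CPM in a cluster of 196 cells with Fndc7 among its leading genes and 344 CPM in one of 333 cells led by Gjb6 and Fgf3. The Fndc7 cluster also had the highest Id2 and Id3 of the class, at 632 and 650 CPM, and the Gjb6 cluster the lowest, at 155 and 135 CPM. Id4 varied less over these clusters, between 163 CPM in the cluster led by Tectb and 284 CPM in that led by Gjb6. At E14 the SC-like cluster with high Zpld1 and Msx1 had 1683 CPM of Id3 and 589 CPM of Id4. The cluster led by Tectb and Otol1 had 471 CPM of Id3 and 134 CPM of Id4, with Id1 at 410 CPM against 588 CPM in the Zpld1 cluster. An unnamed E14 cluster of 51 cells, led by Aldh1a1 and holding Msx2 and Bmp6 among its leading genes, had the highest Id1 and Id3 of all E14 clusters. Id1 was 1740 CPM (1635 to 1850), Id2 705 CPM, Id3 3111 CPM (2970 to 3257) and Bambi 392 CPM there, while Id4 was 42.6 CPM.

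HC-like clusters differed as well. At P2, the cluster of 122 cells led by Spp1 and Scg2, with 10.9 CPM of Atoh1, had the highest Id4 of all clusters, 980 CPM (931 to 1030), and the lowest Id1 and Id2, 19.2 and 7.02 CPM. The cluster of 51 cells led by Hsd11b2 had the highest Atoh1, 334 CPM, the lowest Id4 of the class, 174 CPM (146 to 207), and 121 CPM of Id1. The cluster led by Grp and Nnat, with 322 CPM of Atoh1, had 465 CPM of Id4 and 131 CPM of Id1, and that with Nppa and Gal among its leading genes, with 166 CPM of Atoh1, 696 and 120 CPM. The deeper HC-like cluster led by Ocm, of 58 cells and with 14.5 CPM of Atoh1, had 533 CPM of Id4 and 35.3 CPM of Id1. A shallow cluster of 206 cells, with a median of 1765.5 UMIs, was also led by Ocm, and its levels are not given here. At E14 the Ccer2 cluster, with 278 CPM of Atoh1, had 394 CPM of Id4 and 35.2 CPM of Id1, and the small Lbx2 and Ocm cluster 436 and 9.12 CPM.

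Over the 19 P2 clusters of at least 50 cells, log2 levels of Id1 and Id2 had a Pearson r of 0.98, Id1 and Id3 of 0.97, Id2 and Id3 of 0.96, and Id4 had r of -0.75 with Id1, -0.70 with Id2 and -0.74 with Id3. Over the 31 E14 clusters r was 0.62 for Id1 with Id2, 0.67 for Id1 with Id3 and 0.19 for Id2 with Id3. Id4 had r of 0.38 with Id1, 0.54 with Id2 and -0.26 with Id3 there. These values are descriptions of clusters that share a library and differ in depth. The sets also differed in makeup. The P2 set held 6 HC-like clusters and no mesenchymal cell-like one, as that class had 34 cells. The E14 set held fewer HC-like clusters and 7 mesenchymal cell-like ones, where Id4 was low. The r values of the ages therefore cannot be read as a change with age. The r of Id4 was negative with all 3 other Id genes at P2, and at E14 with Id3 alone. By the fixed rule, the genes most like Id1 over E14 clusters were Tmem47 (r of 0.86, and 0.89 over P2 clusters), Tmem98 (0.84 and 0.86) and Adgra3 (0.83 and 0.80). Id3 was most like Serpinh1 (0.84 and 0.89), a collagen chaperone, Cnn3 and Fkbp10. Id2 was most like Adssl1, Vps37b and Slc16a7, with r between 0.80 and 0.84, and 0.65, 0.89 and 0.41 over P2 clusters. Id4 had Tnfrsf12a (r of 0.93 over E14 clusters and -0.61 over P2 clusters), Smtnl2 (0.92 and -0.12) and Me1 (0.92 and 0.58). Smad6 was most like Smarca1, Tcf7l1 and Sparc, Smad7 like Adgrl2, Itpr1 and Rgp1, Bambi like Zfpm1, Zfp275 and Timp3, and Atoh8 like Mras and Sh3d21, with r between 0.70 and 0.91. Over P2 clusters Rgp1 had r of -0.29 with Smad7.

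**Figure D4:**
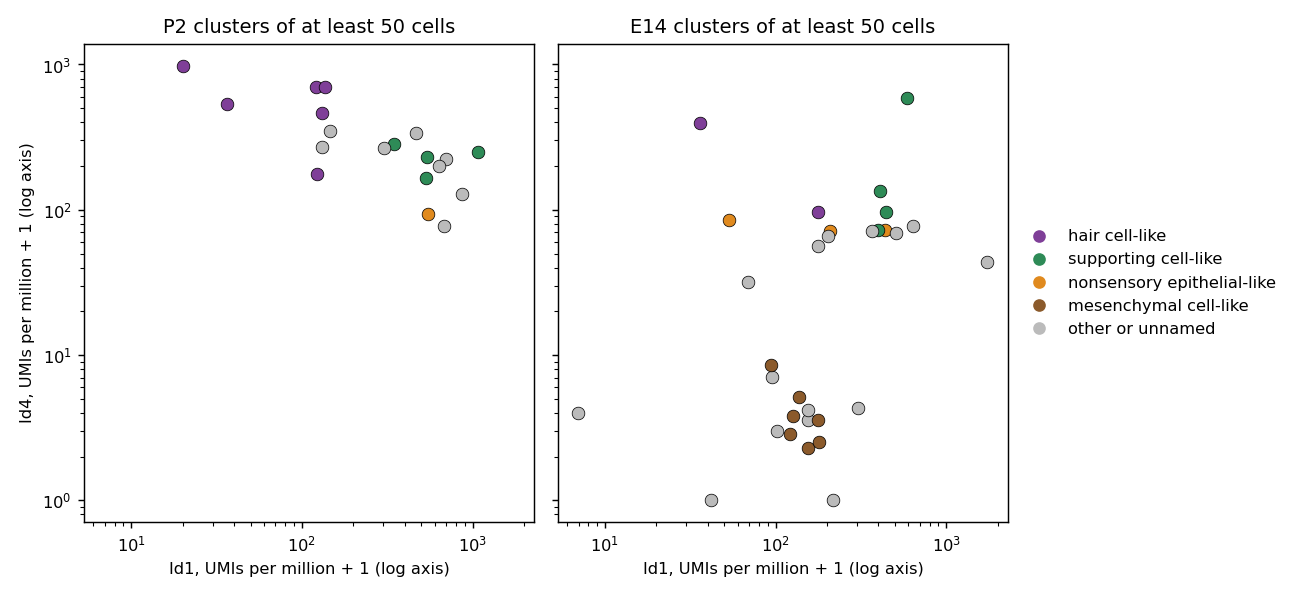
Level of Id4 against Id1 in CPM plus 1 (log axes), 1 point per cluster of at least 50 cells, P2 left and E14 right, coloured by cell class. P2 HC-like clusters lie at the top left, and E14 mesenchymal cell-like clusters lie at the bottom with Id4 below 10 CPM.

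Atoh1-positive cells were compared with Atoh1-negative cells after every HC-like and SC-like cell had been thinned to 4000 UMIs, so that depth was equal. Positive means at least 1 Atoh1 UMI left, and neither Atoh1 nor the 8 genes had been used to cluster or name the cells. At P2 there were 359 Atoh1-positive and 1156 Atoh1-negative cells, with 195 cells left out as too shallow. At E14 there were 112 and 756, with 734 left out. In these cells 5 of the 7 genes tested were called lower in Atoh1-positive cells of P2, where 14.8% of all 12233 genes were. At E14 4 of the 8 were called lower, where 13.8% of all 11646 genes were. None was called higher at either age, where 5.15% and 9.23% of all genes were. In either direction, 20% and 23.0% of all genes were called. Id1 was 160 CPM in positive and 383 CPM in negative cells of P2, a ratio of 0.417 (0.362 to 0.479), and 170 and 368 CPM at E14, a ratio of 0.461 (0.360 to 0.582). Id2 had ratios of 0.295 (0.233 to 0.368) at P2 and 0.336 (0.232 to 0.471) at E14, and Id3 of 0.232 (0.178 to 0.297) and 0.437 (0.365 to 0.519). Id4 was higher in Atoh1-positive cells without reaching the call, with ratios of 1.22 (1.12 to 1.32) at P2 and 1.41 (1.19 to 1.66) at E14. Bambi had 6 UMIs in positive and 74 in negative cells of P2, a ratio of 0.261 (0.0928 to 0.596), and one of 0.470 (0.230 to 0.864) at E14. Smad6 rested on 1 UMI in positive and 22 in negative cells of P2, a ratio of 0.146 (0.00355 to 0.906), which turned to 1.19 when thinned to 2000 UMIs and to 1.45 when positive meant at least 2 Atoh1 UMIs.

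The makeup of the groups differed, and Atoh1-positive cells were mostly HC-like, 314 of 359 at P2 and 77 of 112 at E14. Within P2 HC-like cells, with 314 positive and 447 negative cells, none of the 5 genes tested was called, where 10.9% of all genes were called in either direction, 3.72% higher and 7.2% lower. Id1 was 130 CPM in positive and 71.6 CPM in negative cells there, a ratio of 1.81 (1.43 to 2.30), and Id3 43.0 and 24.1 CPM, a ratio of 1.79 (1.18 to 2.73). Id4 ran the other way, at 558 and 716 CPM, a ratio of 0.779 (0.710 to 0.855). Within P2 SC-like cells, with 45 positive and 709 negative cells, 2 of 7 genes tested were called lower, where 7.0% of all genes were, and none higher, where 6.92% were. Id3 was 77.8 CPM in positive and 318 CPM in negative cells, a ratio of 0.244 (0.133 to 0.412), Id2 had a ratio of 0.436 (0.278 to 0.653) and Id1 of 0.634 (0.488 to 0.811). Within E14 SC-like cells, with 35 positive and 653 negative cells, Id1 had a ratio of 1.05 (0.795 to 1.36), Id2 of 0.725 (0.474 to 1.06) and Id3 of 1.09 (0.898 to 1.31). Id4 had a ratio of 1.34 (0.975 to 1.80). In the Tectb cluster alone, Id3 had a ratio of 0.445 and Id4 of 0.493, both called lower, and without the Zpld1 cluster they had 0.633 and 0.864. In all E14 SC-like cells Smad6 met the rule with 4 and 37 UMIs, a ratio of 2.02 (0.522 to 5.61) whose interval held 1. In that comparison 6.76% of all genes were called higher and 8.09% lower. Within E14 HC-like cells 77 positive and 103 negative cells were left, none of the genes tested was called, where 4.14% of all genes were higher and 10.2% lower, and Id1, Id3 and Id4 had ratios of 0.772 (0.380 to 1.51), 0.912 (0.440 to 1.84) and 1.05 (0.819 to 1.33). Without thinning, the pooled E14 ratio was 1.10 for Id3 and 1.14 for Bambi.

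Pou4f3, a hair cell factor that follows Atoh1, was used to order the cells into 4 states. Pou4f3 is also one of the hair cell markers, so the states run along the classes. Id1 at P2 was 578 CPM in 676 cells with neither gene, 354 CPM in 41 cells with Atoh1 only, 134 CPM in 318 cells with both and 107 CPM in 480 cells with Pou4f3 only. At E14 Id1 was 413, 368, 67.6 and 105 CPM in the same states, with 646, 38, 74 and 110 cells. At E14 the intervals of cells with Atoh1 only and with neither gene overlapped, and at P2 they did not. Id3 in cells with Atoh1 only was 97.6 CPM (55.8 to 158) at P2, against 312 CPM in cells with neither gene, and 678 CPM (553 to 822) at E14, against 781 CPM. Id4 at P2 was 275, 372, 549 and 658 CPM over the 4 states, and 252, 388, 372 and 361 CPM at E14. The last 3 values at E14 were within each other's intervals. Among P2 HC-like cells Id4 was 716 CPM at 0 Atoh1 UMIs, 597 CPM at 1, 538 CPM at 2 and 419 CPM at 3 or more.

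**Figure D5:**
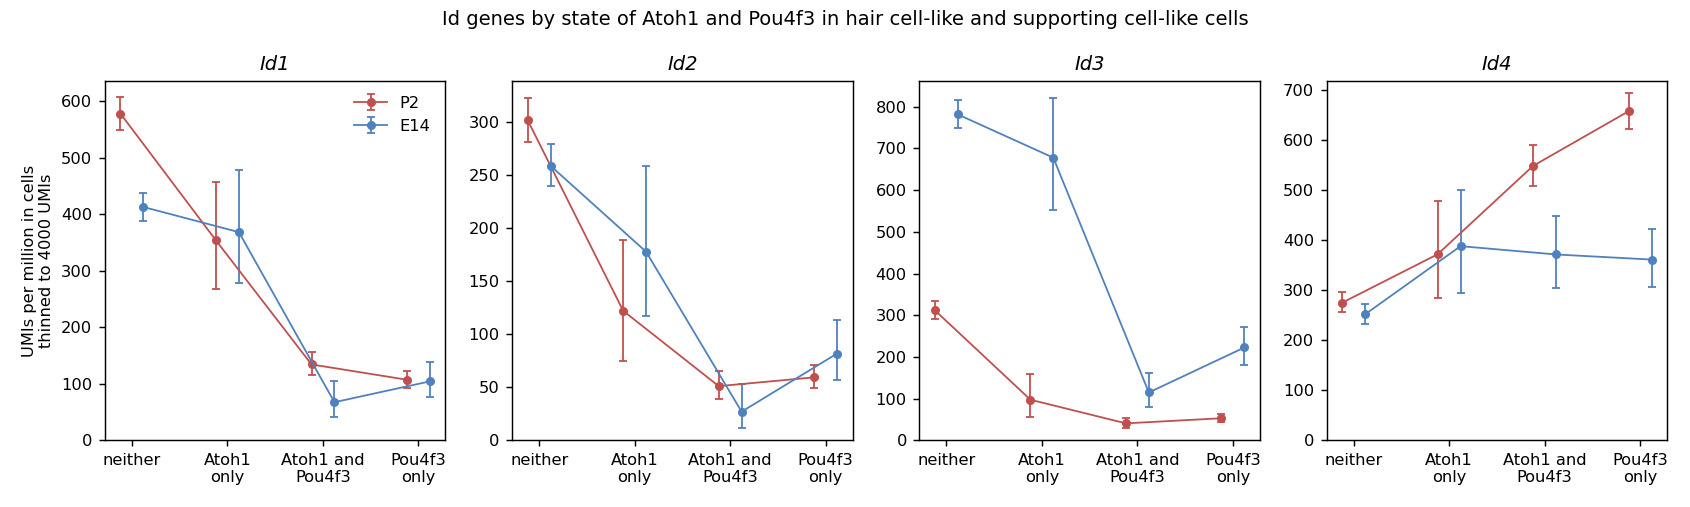
Level of Id1, Id2, Id3 and Id4 in CPM in HC-like and SC-like cells thinned to 4000 UMIs, by presence of Atoh1 and Pou4f3, P2 and E14, with 95% counting intervals. Id1 is highest in cells with neither gene, at 578 CPM at P2 and 413 CPM at E14, and Id4 lowest there, at 275 and 252 CPM.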

How the data were processed

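Single-cell libraries of the utricular sensory epithelium of WT mice at P2 and E14, 1 per age, were made by the authors with 10x Genomics 3′ chemistry. The submitters' processing notes name Cell Ranger 3.1.0 and Seurat 4.1.1, with both GRCm39 and mm10 as genome builds. What the authors deposited is a matrix per library of raw UMI counts, without normalization.

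Barcodes with at least 1000 UMIs, at least 500 genes and at most 15% mitochondrial UMIs were kept, and the highest scores against simulated doublets were removed at 0.8% per 1000 barcodes. Cells were clustered by Leiden (leidenalg 0.10.2, resolution 1, 15 neighbours, 30 components, 2000 variable genes), and a cluster was named from at least 3 detected markers. The variable genes left out Atoh1, Pou4f3, the 8 genes, all genes of the related lists, and mitochondrial, ribosomal and haemoglobin genes. Some of these, such as Pou4f3 and Hes5, were still markers for naming. UMIs were summed per class and divided by all UMIs of the class (CPM), with exact Poisson intervals, and ratios of levels have exact binomial intervals on the split of the UMIs. PCR duplicates were collapsed by UMI, and intervals cover counting error only. Called means at least 2-fold with at least 10 UMIs in either group; a count of 0 was set to 3 counts. Thinning drew 4000 UMIs per cell. Intervals and fold calls were tested on simulated Poisson counts, which hold no added variation between cells or libraries. Cluster naming was tested on simulated hair cells, endothelial, immune and glial cells with raised markers, and not on supporting or nonsensory cells. Thinning was checked on the P2 SC-like cells. Named genes are the 8 members, at most 4 members past the fold from each list, and for each member the 3 genes with the highest Pearson r of log2 (CPM + 1) over E14 clusters of at least 50 cells; some list genes that did not pass, and clusters, were chosen for description after their values were seen. The members and lists were chosen with earlier results of these data known. One gene that the rule for named genes gives is not reported here. Alternatives covered doublets, filters, clustering, scaling, fold, minimum count and thinning. Positions come from GENCODE M21 on GRCm38 and were not converted.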

Additional observations from a re-analysis of the deposited data

Results flagged for a closer look

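Id4 and Atoh8 had ratios of P2 over E14 on opposite sides of 1 in different cell classes, each with a counting interval that left out 1. Id4 had a ratio of 1.73 (1.62 to 1.85) in HC-like and 1.23 (1.10 to 1.38) in nonsensory epithelial-like cells, against 0.917 (0.876 to 0.959) in SC-like cells, and 37.1 (19.9 to 64.7) in mesenchymal cell-like cells, of which only 34 were kept at P2. Atoh8 had a ratio of 1.87 (1.09 to 3.21) in nonsensory epithelial-like and 0.373 (0.190 to 0.699) in SC-like cells. Id1 and Id3 differed in the same manner between Atoh1-positive and Atoh1-negative cells of P2. Id1 had a ratio of 1.81 (1.43 to 2.30) within HC-like and 0.634 (0.488 to 0.811) within SC-like cells, and Id3 of 1.79 (1.18 to 2.73) and 0.244 (0.133 to 0.412). With 1 library per age none of these differences was tested. The SC-like and nonsensory epithelial-like classes also differed in makeup between the ages, as given above. Set against the E14 cluster with the highest Tectb alone, the ratio of Id4 in SC-like cells was 1.87, on the same side as the other classes, and thinned to 2000 UMIs the ratio of Id3 within HC-like cells was 0.740.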

How the results depend on the processing

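No paired analysis was possible because there was 1 library per age. In all 17 alternatives that applied, 2 of them chosen after seeing the data (without shallow clusters, and with the Tectb cluster alone), Id1, Id2, Id3, Smad6 and Bambi were called lower in HC-like than in SC-like cells at both ages. The cause of the changes below was not tested. In HC-like cells between P2 and E14, the number of genes called higher was 2 and lower 0 with at most 10% mitochondrial UMIs, at Leiden resolution 0.5 and 2, with 30 neighbours and without shallow clusters; it was 0 higher with at least 2000 UMIs and 1000 genes per cell, 4 higher at a fold of 1.5, 0 in both directions at a fold of 3, and 1 lower with at least 50 UMIs. There the ratio of Id1 was 0.651 with doublets removed at 0.4% per 1000 barcodes, and that of Id3 was 1.01 at resolution 0.5 and 1.003 with 30 neighbours. In nonsensory epithelial-like cells 0 genes were higher at P2 with doublets kept or removed at 0.4%, 30 neighbours, 3000 variable genes, CPM without mitochondrial, ribosomal and haemoglobin genes, the mean of per-cell CPM and a fold of 3, and 2 with at most 10% mitochondrial UMIs, at least 2000 UMIs, resolution 0.5 and 2, a fold of 1.5 and without shallow clusters. In these cells 1 was lower with at least 2000 UMIs, resolution 2 and a fold of 3. In SC-like cells 1 was lower at P2 at a fold of 3 and 2 against the Tectb cluster alone. The mesenchymal cell-like class had 3 higher with the mean of per-cell CPM, and all kept cells 2 at a fold of 1.5. Between HC-like and SC-like cells, 0 were higher at P2 at a fold of 3, and at E14 1 was higher without the Zpld1 cluster and with the Tectb cluster alone.

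Between Atoh1-positive and Atoh1-negative cells of both classes together, 3 genes were lower at P2 when thinned to 2000 UMIs. At E14, 2 were lower with at most 10% mitochondrial UMIs and with 30 neighbours, and 0 at a fold of 3 or without thinning. Smad6 had a ratio of 1.185 at P2 when thinned to 2000 UMIs and of 1.45 when positive meant at least 2 Atoh1 UMIs. Without thinning Id3 had a ratio of 1.102 and Bambi of 1.136 at E14. Within SC-like cells of P2, 1 was lower with doublets kept or removed at 0.4%, at most 10% mitochondrial UMIs, 3000 variable genes and a fold of 3, and 0 without thinning. Within HC-like cells of P2, 1 was lower with 3000 variable genes and with a minimum of 1 UMI, 2 were higher at a fold of 1.5 and 3 without thinning. Within HC-like cells of E14, 1 was higher with at most 10% mitochondrial UMIs, resolution 0.5 and 2, 30 neighbours and without shallow clusters, and 3 were lower when thinned to 2000 UMIs and 2 without thinning. Within SC-like cells of E14, 0 were higher with at least 2000 UMIs, resolution 0.5 and 2, 30 neighbours, a fold of 3, at least 50 UMIs, thinning to 2000 UMIs and no thinning, and 1 was lower without the Zpld1 cluster and 2, Id3 and Id4, with the Tectb cluster alone. Low counts limited Smad6 and Atoh8, with 236 and 106 UMIs in the kept cells of P2.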
